A study of Mus musculus with 7 samples.

Results

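B3galt5, Tmem88b, Slc24a2, Tmem125, Pex5l, Fam13c and Synj2 were examined as 7 genes of 49315 in the count tables that fell clearly in oligodendroglia without KLF13 and are not classic myelin genes. Their names were given by a list made with the knockout values known, and they were chosen by their difference between the groups without a numeric threshold, so that this difference is a description here and carries no test. All 7 were found by symbol, and all 7 passed the filter on low counts that left 18352 genes for testing.

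The RNA came from primary oligodendroglia of newborn mouse brain, 4 samples from wildtype controls (Klf13_ctrl) and 3 from Klf13 knockouts (Klf13_ko), without a further allele or agent that separated the groups. In the knockout mice the gene is deleted constitutively in all tissues, and the cultures were obtained by shaking the precursor cells off mixed glial cultures, after which microglia were depleted, so that the other cells of these cultures lacked KLF13 as well. All 7 cultures had spent 6 days in SATO medium, in which the precursors differentiate. The labels call the samples biological replicates, but do not state which animals or litters were behind them.

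Oligodendrocytes arise from precursor cells and switch on a large set of membrane, lipid and cytoskeletal genes when they start to form myelin. KLF13 is a zinc finger protein of the Krüppel-like family that binds GC-rich and CACCC-like sequences. The 7 genes do not encode compact myelin proteins but belong to other cellular systems. B3galt5 is a galactosyltransferase that extends sugar chains of glycolipids and glycoproteins. Slc24a2 is a sodium, potassium and calcium exchanger that removes calcium from the cell. Pex5l, also known as TRIP8b, is an auxiliary subunit of the hyperpolarization-activated HCN channels. Synj2, synaptojanin 2, removes phosphates from phosphoinositides during membrane traffic. Tmem88b and Tmem125 are named as transmembrane proteins, and Fam13c as a member of the Fam13 family.

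Counts on genes ranged from 24507471 to 59596479 per library, and between 135 and 12716 of them fell on any of the 7 genes in any library. Klf13 itself on chromosome 7 (63886351 to 63938915, GRCm38) had normalized counts of 10915, 11769, 12000 and 10670 in controls and 802, 876 and 961 in knockouts, so that 7.76% was left (log2 fold change -3.69, SE 0.09, edgeR, Benjamini-Hochberg adjusted p = 6.77e-06). These values are raw counts over the TMM-scaled library size, brought back to the mean of all libraries. The genes that collect ribosomal RNA reads took 6.03% to 18.0% of the counts, with 2 libraries of each group above 10%, namely replicates 1 and 4 of the controls and 1 and 3 of the knockouts. Marker genes of the oligodendrocyte lineage were abundant in all libraries, with Olig1 at 51319 in controls and 47748 in knockouts. Markers of other cells were present too. The 8 astrocyte markers summed to 100520 to 139904 normalized counts in controls and 198768 to 233964 in knockouts, and 8 of 8 rose, where 11.6% of all tested genes were higher and 12.2% lower by the same adjusted p. The 10 neuron markers summed to 23404 to 31786 and 46833 to 57557, and 9 of 10 rose. Of 6 markers of precursor cells, whose sums were 140039 to 148845 and 176516 to 178634, 2 rose. The 8 microglia markers had sums of 15458 to 73699 and 14769 to 32440 with none past the test, so that microglial transcripts remained after the depletion step, most of all in control replicate 3. The 9 fibroblast and mural markers had sums of 18005 to 77024 in controls, highest in replicates 3 and 4, and 8025 to 18741 in knockouts, and 1 fell. Sums of the 6 endothelial markers were low, at 457 to 1127 and 402 to 565, and Cldn5 was at 0 in all 4 controls. Of the 4 endothelial markers that could be tested, Cdh5 was lower (adjusted p = 0.0483, edgeR), and its call was lost under 9 settings, up to 0.238, among them the fits without control replicate 1, 3 or 4 and without knockout replicate 1 or 2. The part of these other cells in the results on the 7 genes was not tested. In such bulk samples, fewer cells of a type and less RNA per cell cannot be told apart.

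The sequences around the start sites of 3 of the genes are shown because they span the range of Klf-like letters among the 6 genes with such windows, from the most to none. They are 300-base windows from RefSeq (GRCm38.p6), from 250 bases before to 50 bases after an annotated start, read on the strand of the gene. Capitals mark the hexamers ACGCCC or ACACCC or ACTCCC or CCGCCC or CCACCC or CCTCCC on either strand, where matches may share bases.
Tmem125, chr4:118543677-118543976, minus strand: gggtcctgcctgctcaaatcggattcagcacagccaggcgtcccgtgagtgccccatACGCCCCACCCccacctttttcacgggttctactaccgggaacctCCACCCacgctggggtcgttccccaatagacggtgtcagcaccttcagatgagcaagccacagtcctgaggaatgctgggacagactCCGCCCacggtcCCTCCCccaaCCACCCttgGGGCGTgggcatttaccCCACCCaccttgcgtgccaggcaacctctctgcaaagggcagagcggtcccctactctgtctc
Fam13c, chr10:70440418-70440717, plus strand: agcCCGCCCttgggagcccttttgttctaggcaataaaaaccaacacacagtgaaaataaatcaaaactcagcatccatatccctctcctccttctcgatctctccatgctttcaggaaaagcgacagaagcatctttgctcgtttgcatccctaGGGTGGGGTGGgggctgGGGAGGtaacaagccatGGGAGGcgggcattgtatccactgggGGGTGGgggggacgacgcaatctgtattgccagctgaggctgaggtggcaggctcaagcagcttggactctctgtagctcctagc
Tmem88b, chr4:155785825-155786124, minus strand: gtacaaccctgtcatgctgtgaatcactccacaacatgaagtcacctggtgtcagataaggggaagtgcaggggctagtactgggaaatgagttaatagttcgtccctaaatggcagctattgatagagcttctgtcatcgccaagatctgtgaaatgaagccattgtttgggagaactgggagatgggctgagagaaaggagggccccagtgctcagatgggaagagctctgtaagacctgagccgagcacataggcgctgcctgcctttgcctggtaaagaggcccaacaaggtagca

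The Tmem125 window held 8 such hexamers, the first Fam13c window 6 and the Tmem88b window 0. Such hexamers are common in mouse promoters, and 76.8% of all 32851 windows in the table had at least 1 hexamer, with a median of 2. A count of 8 or more, as for Tmem125, occurred in 4.38% of all windows. As Tmem125 had the highest count among all windows of these genes, this share does not measure how rare its count is. G and C made up 62.7% of its window, where the median of all windows was 52.7%. RefSeq gave 11 windows for 6 of the 7 genes, of which 8 held a hexamer, with the same median of 2. The first Slc24a2 window had 4, the 3 B3galt5 windows had 2, 0 and 3, and both Synj2 windows had 1 at the same place, as these windows overlap. For Synj2 the annotated starts lay 34300 and 34306 bases inside the counted gene, so that they belong to shorter transcripts. Of the letters recognised by SOX10, spelled as ACAAA or ACAAT or TCAAA or TCAAT on either strand, at least 1 was in 8 of the 11 windows and in 77.2% of all windows. The MYRF-like heptamers CTGGCAC and CTGGTAC were in 3 of the 11 windows, which belong to Slc24a2 and Tmem125, and in 7.10% of all windows. A match of letters is not a binding site, and binding was not measured in these libraries.

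All 7 genes were lower in each of the 3 knockout libraries than in each of the 4 control libraries. The control mean was 2.30 to 8.23 times the knockout mean, and a median of 20.9% of the control level was left. The median log2 fold change of the 7 genes was -2.26, where the median of all tested genes was -0.004. All 7 passed both limits, adjusted p 0.05 and log2 fold change -1, as did 565 or 3.08% of all tested genes. Knockout and control libraries did not overlap with the knockout lower for 18% of all tested genes. Nothing is read from the 7 of 7, as the genes were chosen for this difference.

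**Figure D1:**
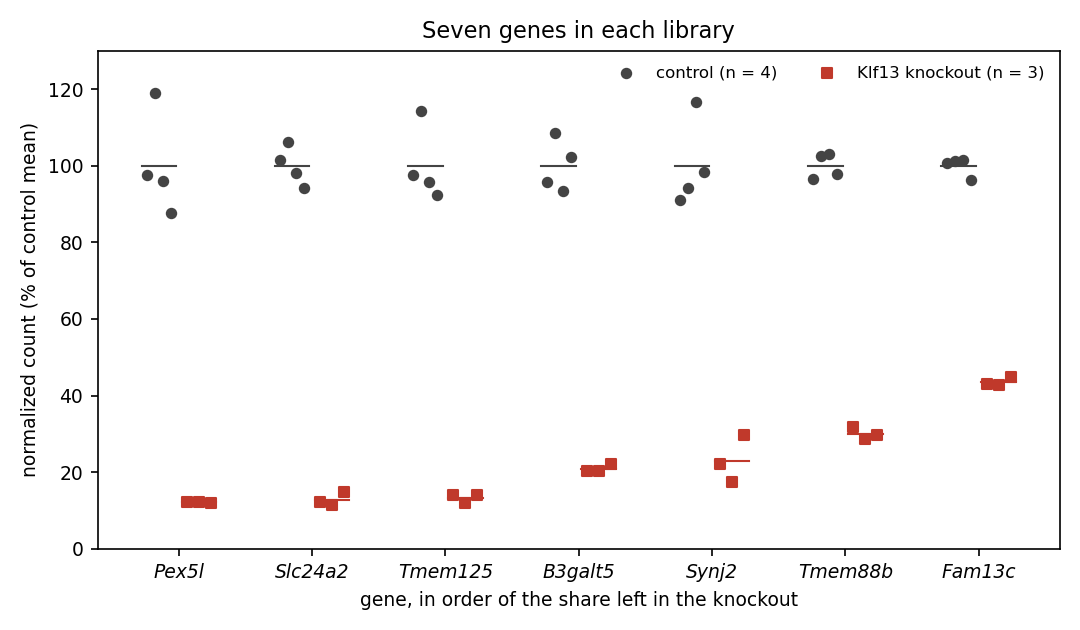
Normalized counts of the 7 genes in each library as percent of the control mean of the gene (y axis, from 0), with genes on the x axis in order of the share left in the knockout. Circles are the 4 control and squares the 3 knockout libraries, and horizontal lines are group means. The knockout means run from 12.2% for Pex5l to 43.6% for Fam13c, and the spread between knockout libraries is widest for Synj2.

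Pex5l, the HCN channel subunit, lies on chromosome 3 (32949408 to 33143247, minus strand) and had normalized counts of 4762, 5803, 4686 and 4276 in control replicates 1 to 4. In knockout replicates 1 to 3 it had 596, 598 and 586. The knockout libraries were close to each other, whereas control replicate 2 stood above the other controls. With means of 4882 ± 650 (SD, n = 4) and 593 ± 6.58 (SD, n = 3), 12.2% was left and the log2 fold change was -3.04 (SE 0.11), the steepest of the 7, and 52 of the tested genes had a lower log2 fold change.

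Slc24a2, the calcium exchanger, lies on chromosome 4 (86983124 to 87230477, minus strand) and had normalized counts of 2962, 3097, 2858 and 2749 in controls. In knockouts there were 354, 337 and 430. Control libraries differed little, and knockout replicate 3 was the highest knockout. The means of 2917 ± 149 (SD, n = 4) and 374 ± 49.8 (SD, n = 3) left 12.8%, with a log2 fold change of -2.96 (SE 0.10).

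Tmem125, a small transmembrane gene, lies on the same chromosome (118540941 to 118544044, minus strand), with normalized counts of 1954, 2288, 1919 and 1849 in controls. The knockout libraries had 280, 242 and 281. Control replicate 2 was again the highest control, and knockout replicate 2 the lowest knockout. Between means of 2002 ± 195 (SD, n = 4) and 268 ± 22.2 (SD, n = 3), 13.4% was left (log2 fold change -2.91, SE 0.11).

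B3galt5, the galactosyltransferase, lies on chromosome 16 (96235801 to 96319859, plus strand). Its normalized counts were 4288, 4860, 4177 and 4578 in controls and 906, 912 and 988 in knockouts. The knockout libraries lay within a narrow range far below the lowest control. From 4476 ± 307 (SD, n = 4) to 935 ± 45.5 (SD, n = 3), 20.9% was left and the log2 fold change was -2.26 (SE 0.07).

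Synj2, the phosphoinositide phosphatase, lies on chromosome 17 (5941280 to 6044290, plus strand) and was the least expressed of the 7 in controls. Control libraries had normalized counts of 1002, 1038, 1284 and 1083, and knockout libraries had 244, 192 and 326. Here control replicate 3 and knockout replicate 3 were highest, and the knockouts varied more among themselves than for any other of the 7 genes. The means were 1102 ± 126 (SD, n = 4) and 254 ± 67.7 (SD, n = 3), which left 23.0% with a log2 fold change of -2.12 (SE 0.19). The value was -1.94 without knockout replicate 2 and -2.34 without knockout replicate 3. Control replicate 3 also had the highest sums of microglia markers, at 73699, and of fibroblast and mural markers, at 77024. With control replicates 3 and 4 left out, the log2 fold change of Synj2 was -2.01.

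Tmem88b lies on chromosome 4 (155781591 to 155785874, minus strand) and was the most abundant of the 7. Its normalized counts were 11739, 12491, 12557 and 11903 in controls and 3874, 3477 and 3609 in knockouts. Both groups were tight around their means of 12172 ± 413 (SD, n = 4) and 3654 ± 203 (SD, n = 3), 30.0% was left, and the log2 fold change was -1.74 (SE 0.06).

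Fam13c lies on chromosome 10 (70440668 to 70558731, plus strand) and had normalized counts of 6126, 6158, 6166 and 5857 in controls. In knockouts it had 2616, 2604 and 2721. The first 3 control replicates were nearly equal, and replicate 4 stood a little below. Fam13c fell least, from 6077 ± 148 (SD, n = 4) to 2647 ± 64.3 (SD, n = 3), with 43.6% left and a log2 fold change of -1.20 (SE 0.05). Of all tested genes, 587 had a lower log2 fold change.

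In order of the share left, Pex5l, Slc24a2 and Tmem125 had 12.2% to 13.4%, B3galt5, Synj2 and Tmem88b 20.9% to 30.0% and Fam13c 43.6%. In their profiles over the 7 libraries, Slc24a2 and Tmem125 were closest, with a root mean square difference of 0.10 on the log2 scale after centring. Pex5l and Fam13c were farthest apart, at 1.20, and Tmem88b lay about as far from Fam13c, at 0.36, as from B3galt5, at 0.35. The coefficient of variation over the controls ran from 2.43% for Fam13c to 13.3% for Pex5l, and over the knockouts from 1.11% for Pex5l to 26.7% for Synj2. These values are a description, since genes with a clear difference and high counts were chosen. Control replicate 2 was the highest control for 4 of the genes and replicate 3 for the other 3, and knockout replicate 3 was the highest knockout for 5.

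Values within the classes of ribosomal RNA share are given as a description, since groups that do not overlap differ in any split of their libraries. Among the 4 libraries above 10%, 2 from each group, the log2 fold changes ran from -2.94 for Pex5l to -1.17 for Fam13c. Among the 3 below, 2 controls and 1 knockout, they ran from -3.14 for Slc24a2 to -1.24 for Fam13c. The largest gap between the classes was seen for Synj2, with -1.87 above and -2.60 below.

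**Figure D2:**
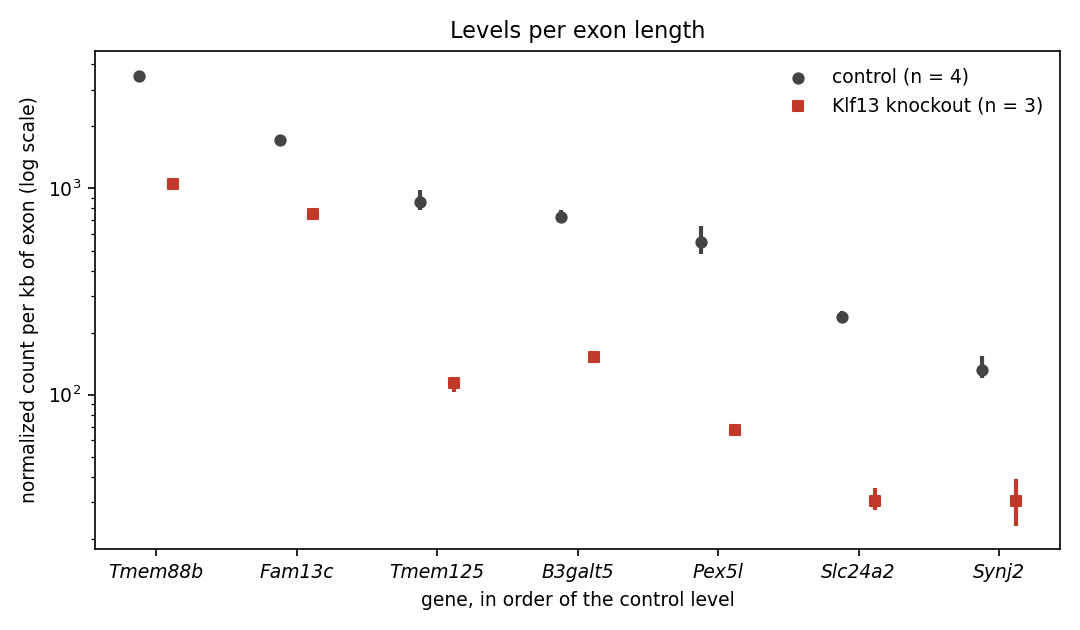
Normalized counts per kilobase of exon for the 7 genes on a log axis, with genes on the x axis in order of the control level. Circles (controls, n = 4) and squares (knockouts, n = 3) are means and vertical lines run from the lowest to the highest library. Tmem88b is highest in both groups. Synj2 is lowest in controls, and its range overlaps that of Slc24a2 in the knockout, where B3galt5 and Tmem125 change places.

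To compare the genes with each other, normalized counts were divided by exon length in kilobases. On this scale the control levels were 3507 for Tmem88b, 1726 for Fam13c, 856 for Tmem125, 727 for B3galt5, 552 for Pex5l, 239 for Slc24a2 and 132 for Synj2. No neighbours in this order had overlapping ranges of control libraries, and the highest level was 26.6 times the lowest. Tmem88b stood at percentile 97.3 and Synj2 at percentile 48.5 of all tested genes. In the knockout the levels per kilobase were 1053 for Tmem88b, 752 for Fam13c, 152 for B3galt5, 114 for Tmem125 and 67.1 for Pex5l. Slc24a2 at 30.6 and Synj2 at 30.4 had overlapping ranges there. B3galt5 thus stood above Tmem125 in the knockout but below it in controls.

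Overlapping transcripts limit what can be said of 3 of the genes, because the strand setting of the counting is not stated. The end of Fam13c shares 1050 bases, or 29.8% of its exon length, with Phyhipl on the opposite strand. Phyhipl was more abundant than Fam13c, at 28451 ± 3897 normalized counts in controls (SD, n = 4) and 22062 ± 1351 in knockouts (SD, n = 3), with a log2 fold change of -0.37 (adjusted p = 0.0478, edgeR) that was lost under 9 of 16 alternatives, up to 0.167, among them each fit without a knockout library. Pex5l shares 340 exon bases, or 3.84%, with Gm37459 and 24 bases with 4930419G24Rik on the opposite strand. Synj2 shares 297 exon bases, or 3.56%, with Serac1. The calls of Fam13c and of these partners are uncertain to that extent.

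As the classic myelin genes were not among the 7, they were used for comparison. All 10 on the list were lower at the adjusted p threshold, where 12.2% of all tested genes were. With a log2 fold of 1 in addition, 8 were lower, against 3.08% of all tested genes. The median log2 fold change of the 10 was -2.80. Their remaining level ran from 8.41% for Ermn to 51.3% for Cnp. The 7 genes, with 12.2% to 43.6% left, lay within this range. Single classic genes stood close to single members of the 7. Opalin with 13.8% left was next to Tmem125 and Mbp with 29.0% next to Tmem88b.

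The likeness of profiles was then measured over all 7 libraries as the root mean square difference of centred log2 values, among 14110 genes. This is a description without a test, since all profiles were dominated by the group difference that had chosen the genes. Tent5a and Sept4 were close to B3galt5, both at 0.12. Mbp, encoding myelin basic protein, was nearest to Tmem88b at 0.08, followed by Zfp536 and Tppp at 0.10. For Fam13c the nearest genes were Cpeb1, Myrf and Map6d1, all at 0.05. Myrf encodes a transcription factor required for myelin gene expression and had 45.0% left, close to the 43.6% of Fam13c. Tmod1 was nearest to Tmem125 at 0.04 and to Slc24a2 at 0.07, with Kndc1 next in both followed by Cdc42ep2 for Tmem125 and Unc5b for Slc24a2. Unc5b, Kndc1 and Tmem151a were nearest to Pex5l. The nearest genes to Synj2 were Ctsk and Tent5a at 0.15 and Fgf7 at 0.22, so that Synj2 had no neighbour as close as those of the other genes. Control replicates 3 and 4, with the highest fibroblast and mural sums, were also the highest controls for Ctsk, at 358 and 312 normalized counts, and for Fgf7, at 295 and 348.

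Relatives and partners of the 7 genes were examined to see which other members of their families changed. The lists go by family and binding partner, and 48 of the 49 genes on them passed the filter, with B3gnt6 too low. At the adjusted p threshold alone 8 were lower and 10 higher, where 12.2% of all tested genes were lower and 11.6% higher. With a log2 fold of 1 in addition, 3 were lower and 6 higher, against 3.08% and 3.97% of all tested genes. Their median log2 fold change was 0.01. In repeated fits with 16 other settings, 5 of the 8 and 3 of the 10 kept their call in every one.

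The partners of Pex5l changed in both directions. Hcn2, an HCN channel subunit, had 3500, 4843, 4497 and 3535 normalized counts in controls and 1146, 1477 and 1111 in knockouts. The groups were far apart, and it fell from 4094 ± 680 (SD, n = 4) to 1245 ± 202 (SD, n = 3), with a log2 fold change of -1.72 (SE 0.16, adjusted p = 0.000651, edgeR). Hcn3 rose from 210 ± 50.8 (SD, n = 4) to 445 ± 71.6 (SD, n = 3), with a log2 fold change of 1.08 (adjusted p = 0.0124, edgeR), but the adjusted p was 0.0525 without knockout replicate 2. Hcn4 had 83.1 ± 57.7 (SD, n = 4) and 255 ± 56.8 (SD, n = 3) without passing the test (log2 fold change 1.62, adjusted p = 0.0575, edgeR). With the replicate block its adjusted p was 0.0165, and it also passed with DESeq2, voom and the ribosomal RNA covariate and, at 0.0143, without control replicate 2, over a range of 0.00843 to 0.168 in all settings. Pex5, the peroxisomal import receptor after which Pex5l is named, had a log2 fold change of -0.03 with a 95% interval of -0.40 to 0.33. Rab8b, a small GTPase that binds Pex5l, had -0.04 (adjusted p above the threshold in all settings). The neuron markers, which rose in 9 of 10 cases, moved with Hcn3, and their part was not tested.

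Among the glycosyltransferases of the B3galt, B3galnt and B3gnt families, 1 of 14 tested fell and 2 rose besides B3galt5, beside 12.2% lower and 11.6% higher of all tested genes, with a median log2 fold change of 0.02. B3gnt9 had 269, 371, 361 and 277 normalized counts in controls and 128, 165 and 111 in knockouts, without overlap. Its log2 fold change was -1.24 (SE 0.20, adjusted p = 0.00554, edgeR). B3gnt5, which starts the lacto-series of glycolipids, rose from 188 ± 63.9 (SD, n = 4) to 485 ± 24.9 (SD, n = 3) with a log2 fold change of 1.37 (SE 0.26, adjusted p = 0.0109, edgeR). B3gnt7 was low, with 23.9 and 57.0 on average (log2 fold change 1.27, adjusted p = 0.0316, edgeR), and lost its call under 7 settings, among them each of the 3 fits without a knockout library. B3galnt1 and B3galt6, the most abundant per length, had log2 fold changes of 0.32 and 0.29 and did not pass the test, although B3galnt1 did without control replicate 3 (adjusted p = 0.00686, edgeR) and B3galt6 did with the ribosomal RNA covariate (0.0244). No other B3galt gene passed it.

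Of the other calcium exporters, 0 of 12 fell and 5 rose, where 12.2% and 11.6% of all tested genes did, with a median log2 fold change of 0.40. Atp2b4, a calcium pump of the plasma membrane, had 1269, 1541, 1022 and 1008 normalized counts in controls and 2759, 3250 and 2573 in knockouts. The lowest knockout was well above the highest control, with a log2 fold change of 1.24 (adjusted p = 0.00279, edgeR). Atp2b3 rose from 78.4 to 254 on average (log2 fold change 1.70, adjusted p = 0.00645, edgeR), and Atp2b2 from 444 to 1177 (log2 fold change 1.41, adjusted p = 0.0244, edgeR). The call of Atp2b2 was lost without knockout replicate 1 or 2 and without the filter on low counts, with an adjusted p of up to 0.0895. Atp2b1, the most abundant pump, rose by 0.33 on the log2 scale (adjusted p = 0.0153, edgeR), but had an adjusted p of 0.0615 without knockout replicate 2. Slc24a3, an exchanger of the same kind as Slc24a2, had a log2 fold change of 0.53 (adjusted p = 0.0410, edgeR). Its call was lost under 5 settings, up to 0.137, namely without control replicate 2, without any 1 of the knockout libraries and without control replicates 3 and 4. Slc8a1, a sodium and calcium exchanger, had a log2 fold change of 0.60 and did not pass the test (adjusted p = 0.0677, edgeR), but did with the replicate block at 0.0187, and without control replicate 3 or 4 at 0.0343 and 0.0347, over a range of 0.0147 to 0.161 in all settings. The exchangers Slc24a1, Slc24a4 and Slc24a5 did not pass the test. Astrocyte and neuron markers were higher in the same 3 libraries as these pumps, and their part was not tested.

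The inositol phosphatases related to Synj2 and its binding partner Synj2bp fell or did not pass the test. Of 13 tested, 5 fell and 0 rose, against 12.2% and 11.6% of all tested genes, with a median log2 fold change of -0.21. Of the 5, Inpp5b lost its call under 11 of 16 settings, among them each fit without 1 library, up to 0.142. Synj2bp lost its call under 5, namely without control replicate 1 or 4, without knockout replicate 1 or 2 and without control replicates 3 and 4, up to 0.101. Inpp5a, which degrades the second messenger inositol trisphosphate, had 2652, 2821, 2752 and 2582 normalized counts in controls and 1618, 1659 and 1495 in knockouts. The groups were well separated, with a log2 fold change of -0.76 (SE 0.06, adjusted p = 0.000306, edgeR), and kept the call in all settings. Sacm1l, a phosphoinositide phosphatase of the endoplasmic reticulum, fell by 0.37 on the log2 scale (adjusted p = 0.00582, edgeR). Inppl1 was the most abundant of the list, with 21282 and 16026 normalized counts on average, a log2 fold change of -0.41 and an adjusted p of 0.0316 by edgeR, which was 0.0575 with the replicate block. Its call was lost under 7 settings, up to 0.131, among them the fits without control replicate 2, 3 or 4 and without knockout replicate 1 or 3. Synj1, the other synaptojanin, had 3656 ± 80.5 (SD, n = 4) and 3625 ± 127 (SD, n = 3), and the 95% interval of its log2 fold change ran from -0.13 to 0.10. Synj2 was chosen for its fall, so that its -2.12 stands beside this interval as a description only.

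Fam13a and Fam13b, the other members of the Fam13 family, were higher in the knockout by 0.42 and 0.23 on the log2 scale (adjusted p = 0.0261 and 0.0244, edgeR), whereas Fam13c was lower. Both calls were lost under 6 settings, up to 0.112 and 0.0983, among them the replicate block, at 0.0785 and 0.0809, and each fit without a knockout library. Tmem88, the relative of Tmem88b, was low at 18.6 and 19.7 normalized counts on average and did not pass the test.

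To see whether the fall extended to neighbours on the chromosome, the 2 nearest tested genes on each side of each of the 7 were taken, 28 in all. Of these, 9 were lower and 4 higher at the adjusted p threshold, against 12.2% and 11.6% of all tested genes. The 7 that overlapped the body of a chosen gene made up 5 of the 9. Of the 21 outside, 4 were lower and 4 higher, with a median log2 fold change of -0.005.

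**Figure D3:**
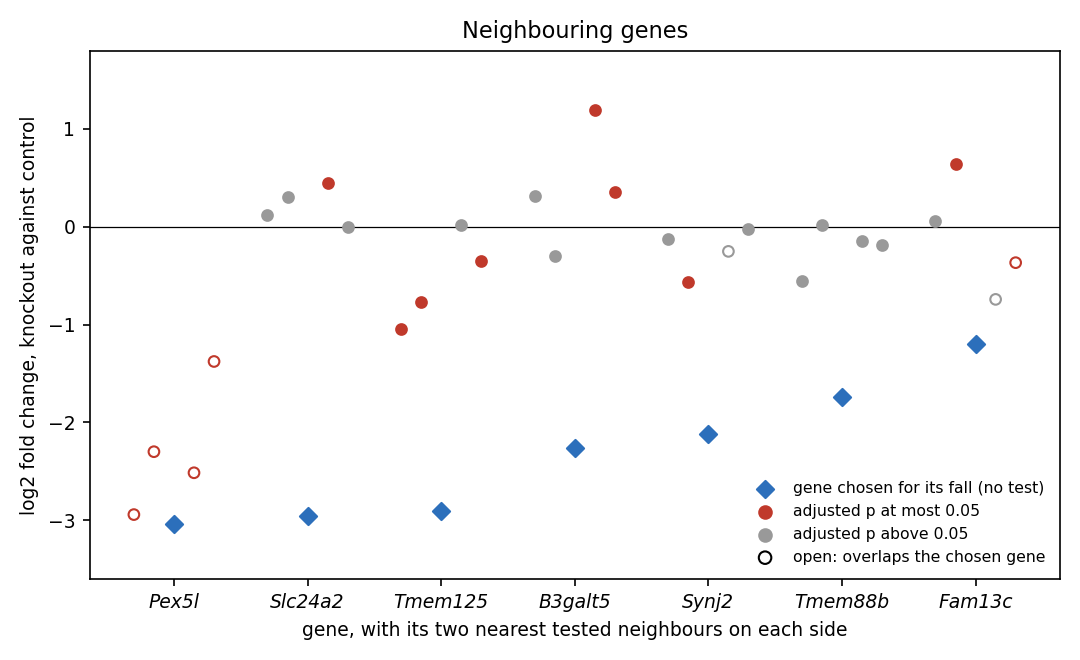
Log2 fold change, knockout against control, of the 2 nearest tested genes on each side of each of the 7 genes (circles, open where they overlap the body of the gene) and of the 7 genes themselves (diamonds, no test), in order of their own change along the x axis. Red circles passed the adjusted p threshold. The 4 genes within Pex5l are all lower, down to -2.94 for Gm37459, while no neighbour of Tmem88b passed.

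All 4 neighbours of Pex5l lay within or across its body and fell. Gm37459 on the opposite strand (chromosome 3, 32939314 to 32983301) had 394, 407, 323 and 272 normalized counts in controls and 39.7, 44.0 and 51.0 in knockouts. With a log2 fold change of -2.94 (SE 0.20, adjusted p = 0.000143, edgeR), 12.9% was left, near the 12.2% of Pex5l, and the call held in all settings. Gm37443, 4930419G24Rik and Gm19445 were low, at 22.6 normalized counts or fewer on average in controls, with log2 fold changes of -2.52, -2.30 and -1.38. Gm37443 and Gm19445 lie within the body of Pex5l on the same strand and shared no exon bases with it. On the opposite strand, 4930419G24Rik shared 24. Whether the counts of Gm37443 and Gm19445 are separate from RNA of Pex5l was not tested. The calls of Gm37443, 4930419G24Rik and Gm19445 were lost under 5, 4 and 9 settings respectively, among them each fit without a knockout library.

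Around Tmem125, 3 of 4 neighbours fell. Elovl1, which elongates very long-chain fatty acids and lies 108.0 kb away on chromosome 4 (118428093 to 118432953), had 3698, 3566, 3612 and 3589 normalized counts in controls and 1816, 1631 and 1816 in knockouts. The log2 fold change was -1.04 (SE 0.06, adjusted p = 6.2e-05, edgeR), with 48.5% left against 13.4% for Tmem125. Cdc20, a cell cycle regulator beside Elovl1 whose end overlaps it, fell by 0.77 on the log2 scale (adjusted p = 0.00271, edgeR). Slc2a1, a glucose transporter 564.7 kb from Tmem125, fell by 0.35 (adjusted p = 0.00981, edgeR). It did not pass the threshold without knockout replicate 1 or without control replicates 3 and 4, up to 0.0539. Snx9 next to Synj2 fell by 0.56 (adjusted p = 0.0169, edgeR), and its call was lost without any 1 of the knockout libraries, up to 0.0711.

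Of the nearest tested genes, those that rose lay at some distance. They were Pcp4 and Dscam, 147.7 and 272.2 kb from B3galt5, Mllt3, 539.4 kb from Slc24a2, and Slc16a9, 154.7 kb from Fam13c. Mllt3, a factor of transcription elongation, had a log2 fold change of 0.44 (adjusted p = 0.00777, edgeR) and was the only 1 of the 4 that held in all 16 settings. Pcp4, a calmodulin-binding peptide, rose by 1.19 on the log2 scale (adjusted p = 0.0228, edgeR). Its call was lost without knockout replicate 1 or 2 and without the filter on low counts, up to 0.0856. Dscam and Slc16a9 had log2 fold changes of 0.35 and 0.64 and lost their calls under 8 and 7 settings, among them each fit without a knockout library. With the replicate block, 2 instead of 4 neighbours were higher. No neighbour of Tmem88b passed the test in either direction.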

How the data were processed

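RNA-seq of 4 Klf13_ctrl and 3 Klf13_ko samples was used. The authors trimmed reads with Trimmomatic 0.36, mapped them with STAR 2.5.2b to GRCm38 and deposited raw counts of unique hits in exons per gene (Subread 1.5.2). The strand setting is not given in the sources used here. Symbols were found for 48970 of 49315 identifiers. The 7 genes and all lists were chosen with earlier results of these data known.

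Counts were filtered with filterByExpr, scaled with TMM and fitted with edgeR 4.0.16 (R 4.3.3, quasi-likelihood, robust, group as only term), and p-values were adjusted over 18352 genes (Benjamini-Hochberg). A call, and the words rose and fell, required an adjusted p up to 0.05, and where a log2 fold change of 1 or more in size was required as well, this is stated. Alternatives were DESeq2 1.42.0, limma voom 3.58.1, DESeq2 size factors, upper quartile factors, no filter, at least 10 counts in every library, the replicate block, the ribosomal RNA share as covariate and leaving out each library in turn. Leaving out control replicates 3 and 4, which had the highest fibroblast and mural sums, was chosen after seeing the data. The scripts were tested on simulated data.

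Deviations of same-numbered control and knockout libraries from their group means correlated at 0.11, 0.46 and 0.17 (different numbers -0.53 to 0.20). The values 0.11 and 0.17 lay within the range of different numbers, and only 0.46 lay above it. The replicate block pairs libraries by these numbers, although the labels do not state what a number marks and the correlations do not establish a pairing. P-values measure only the spread between these samples.

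Genes were named by rule: Klf13, the 7 genes, related or neighbouring genes past the limits of adjusted p and log2 fold change, the 2 most abundant per length of each related list, the 3 genes most like each of the 7, classic myelin genes and the top marker of each cell type. Cell type markers other than these and the neighbours with a log2 fold change below 1 in size were named after their values were seen. So were Hcn4, Pex5, Synj1, Inpp5a, Inpp5b, Synj2bp, Slc24a1, Slc24a3, Slc24a4, Slc24a5, B3gnt6 and Phyhipl. The values of some genes the rule names are not reported here.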

Additional observations from a re-analysis of the deposited data

Results flagged for a closer look

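In the 4 control libraries, 7 of 70 genes had a library that stood apart from the other controls by Dixon's criterion, where chance gives about 1 in 20. Of the 7 genes examined, Fam13c was among them, with 5857 normalized counts in control replicate 4 as its lowest value, still above every knockout. Of their relatives and partners, control replicate 3 was highest for Rab8b (4884) and B3galnt1 (1005), and control replicate 4 was lowest for Slc24a3 (971). Of the transcripts within Pex5l, 4930419G24Rik was highest in control replicate 1 (44.6). Of the marker genes, C1qa was highest in control replicate 3 (21476) and Tubb3 lowest in control replicate 1 (3347).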

How the results depend on the processing

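All 7 genes were lower than controls in 126 of 126 values under other settings, the classes of ribosomal RNA share included, from -3.16 to -1.16 on the log2 scale. All 7 passed both limits under every alternative that gave a test. Nothing is read from this, as the genes were chosen for this difference in the same libraries and their groups do not overlap. Of the 126 values, 14 differed from the main fit by at least the SD of the log2 control counts of the gene. The median log2 fold change of the 7 was -2.34 to -2.22 with 1 library left out. Counts of relatives and neighbours depended more on the settings. With 1 library left out, 5 to 7 relatives were lower and 3 to 12 higher, and 3 to 8 neighbours were lower and 1 to 4 higher. Relatives that were higher numbered 5, 3 and 6 without knockout replicates 1, 2 and 3, and 5 were lower without control replicate 4 and without knockout replicate 1. Neighbours that were lower numbered 3, 4 and 4 and those that were higher 1, 1 and 2 without knockout replicates 1, 2 and 3. Without control replicates 3 and 4, 5 relatives were lower and 2 neighbours higher. Without a filter 2 neighbours were higher, and with at least 10 counts in every library 5 were lower, where 3 of the low transcripts within Pex5l were not tested and Phyhipl had an adjusted p of 0.0512 by edgeR. With the replicate block that pairs libraries by number, 2 neighbours were higher, the median of the 7 genes was -2.25 on the log2 scale and Klf13 was at -3.72. Besides the calls named in the report, the block lost those of Inpp5b, Dscam, Slc16a9, 4930419G24Rik and Gm19445. The sign turned for 5 genes that did not pass the test. With upper quartile factors Rab8b was at 0.014, Pex5 at 0.0059 and Synj1 at 0.027, and with voom Rab8b was at 0.0074. With the ribosomal RNA covariate Rab8b was at 0.019, Pex5 at 0.13 and C1qa at 0.13, without control replicates 3 and 4 Rab8b was at 0.26 and C1qa at 0.49, and with the block Tmem88 was at -0.081. With 1 library left out, Rab8b ran from -0.18 to 0.22, C1qa from -0.61 to 0.51, Pex5 from -0.20 to 0.072, Synj1 from -0.026 to 0.033 and Tmem88 from -0.056 to 0.24. The causes of these shifts were not tested.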
